A study of Mus musculus with 16 samples.

Results

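The collagen genes of 16 mouse small cell lung cancers were described, that is every row of the table of estimated counts whose symbol is Col, a number, the letter a and a number. This gave 43 of 23224 gene rows: 11 fibrillar collagens, 9 fibril-associated collagens (FACITs), 6 basement membrane chains of type IV, 6 beaded filament chains of type VI, 4 transmembrane collagens, 3 network-forming collagens, 2 multiplexins, Col7a1 of anchoring fibrils and Col28a1. All tumors came from mice of a mixed C57BL/6;129/Sv strain and carried the genotype Trp53-/-; Rb1-/-. In 8 tumors of 4 mice CRISPR had mutated p107 (gene Rbl1), and in 8 tumors of 3 mice it had mutated p130 (gene Rbl2). No tumor without such a mutation was analysed here, so every comparison is of p107 tumors with p130 tumors. The labels call the tumors biological replicates, and the number in a title was read as the mouse, so sgp107_6627T1 is tumor T1 of mouse sgp107_6627. The age of the mice is not given in the sources used here.

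Collagens are secreted or membrane-bound trimers with long triple-helical stretches. Types I, III and V form the fibrils of connective tissue and are made mainly by fibroblasts and related stromal cells, while FACITs such as types XII and XIV sit on their surface. Type IV chains build the sheet of the basement membrane under epithelium and around vessels, and type VI forms beaded filaments next to it. Small cell lung cancer is a neuroendocrine carcinoma, so in whole tumor RNA a collagen transcript can come from stroma, vessels or the carcinoma cells themselves. In such bulk RNA, fewer cells of a type and less RNA per cell cannot be told apart.

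Libraries held 12700334 to 34620979 estimated counts. Levels are given as CPM, that is, per library size after TMM scaling. Neuroendocrine markers were high in every tumor, with a mean log2(CPM + 1) over 14 genes of 8.21 to 8.70. Rbl2 lay at 55.3 to 128 CPM in p107 tumors and at 15.6 to 54.3 in p130 tumors, with no overlap. Rbl1 lay at 64.2 to 246 CPM in p107 and 60.5 to 120 in p130 tumors, so its level did not mark the p107 tumors. The groups also differed in sex-linked RNA. Xist was at most 2.87 CPM in all p107 tumors but 140 to 2268 CPM in the 6 p130 tumors of mice sgp130_6637 and sgp130_6638, and 4.17 and 1.89 CPM in those of mouse sgp130_6697. Tumor sgp107_6627T1 stood apart. Its epithelial adhesion genes were nearly lost, with Epcam at 28.5 CPM and Cdh1 at 26.2 CPM, against at least 323 and 314 CPM in every p130 tumor. Results that rest on it are therefore given with and without it.

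Start-site regions of the genes the results turn on are shown here from RefSeq (build GRCm38.p6), each as 250 bases before to 50 after an annotated start, 5′ to 3′ on the gene's strand. RefSeq windows matched 35 of the 43 collagens by symbol, in 38 windows. The first is Col8a1, the collagen of highest level, at chr16:57754688-57754987 on the minus strand. After it stand Col4a1 (chr8:11312777-11313076, minus strand) and Col4a2 (chr8:11312555-11312854, plus strand), of which Col4a2 was the gene most like Col4a1 in level across tumors. The last is Col1a2 (chr6:4505368-4505667, plus strand), for the type I and III genes that varied together. In Col8a1 and Col1a2, capitals mark matches to the motifs described beneath them, and in Col4a1 and Col4a2 they mark the bases that both windows share on opposite strands.
Col8a1: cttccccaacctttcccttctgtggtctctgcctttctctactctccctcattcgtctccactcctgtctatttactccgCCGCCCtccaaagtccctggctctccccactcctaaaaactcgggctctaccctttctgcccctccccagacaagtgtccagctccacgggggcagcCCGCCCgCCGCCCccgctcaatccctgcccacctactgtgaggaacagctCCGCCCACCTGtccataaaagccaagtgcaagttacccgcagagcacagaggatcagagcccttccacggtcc
Col4a1: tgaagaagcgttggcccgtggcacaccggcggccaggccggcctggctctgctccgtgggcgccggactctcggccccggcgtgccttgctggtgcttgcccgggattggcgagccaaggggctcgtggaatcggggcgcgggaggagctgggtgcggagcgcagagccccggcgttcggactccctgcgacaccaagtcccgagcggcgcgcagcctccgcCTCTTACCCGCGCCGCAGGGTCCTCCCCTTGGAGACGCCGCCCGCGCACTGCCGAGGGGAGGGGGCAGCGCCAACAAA
Col4a2: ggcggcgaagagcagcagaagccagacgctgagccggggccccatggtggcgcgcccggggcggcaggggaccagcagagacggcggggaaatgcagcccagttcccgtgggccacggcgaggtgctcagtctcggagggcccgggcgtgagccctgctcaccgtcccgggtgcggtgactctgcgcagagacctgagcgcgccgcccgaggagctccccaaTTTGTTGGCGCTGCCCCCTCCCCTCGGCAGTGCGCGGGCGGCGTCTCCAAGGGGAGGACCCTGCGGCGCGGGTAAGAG
Col1a2: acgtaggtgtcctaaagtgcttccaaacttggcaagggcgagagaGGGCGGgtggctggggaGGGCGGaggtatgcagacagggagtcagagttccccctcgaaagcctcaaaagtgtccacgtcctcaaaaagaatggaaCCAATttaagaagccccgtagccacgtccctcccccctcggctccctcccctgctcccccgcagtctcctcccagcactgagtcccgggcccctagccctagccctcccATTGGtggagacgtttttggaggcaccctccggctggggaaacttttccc

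The Col4a1 and Col4a2 windows overlap by 78 bases, and the annotated starts of these oppositely transcribed genes lie 21 bases apart. The X-linked pair Col4a5 and Col4a6 is also transcribed in opposite directions, from starts 1343 bases apart. Motifs, chosen after the sequences were seen, were searched on both strands. The letters GGGCGG (GC box) were found in 23 of 38 collagen windows (60.5%), against 35.7% of all 32851 windows. CCAAT was found in 34.2% of collagen windows and 37.4% of all windows, TATAAA in 13.2% and 13.6%, TGANTCA (AP-1 site) in 2.63% and 7.81%, and CACCTG (E-box) in 13.2% and 20.2%. The Col8a1 window held 4 matches to GGGCGG and 1 to CACCTG, of which the last GC box and the E-box share a base. The Col1a2 window held 2 matches to GGGCGG and 2 to CCAAT. These matches describe the letters only.

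Collagen transcripts made up 0.103% to 0.477% of a library among p107 tumors, and 0.142% to 0.424% among p130 tumors. Col8a1 took 36.6% to 81.05% of the summed collagen CPM in 15 tumors and 1.01% in sgp107_6627T1. Col8a1, a short-chain network-forming collagen known from the basement membrane of the cornea and from vessel walls, had a mean of 1988 CPM over all tumors. It ranked 4 to 145 among all genes by count in 15 tumors and 10259 in sgp107_6627T1. Per kilobase of transcript it reached 389 CPM, against 28.5 for Col4a1, 22.02 for Col4a2, 17.6 for Col9a2, 16.8 for Col18a1, 16.5 for Col3a1 and 14 for Col1a2. Of all collagen transcripts per length, the network-forming class held 41.8% to 83.0% in 15 tumors and 1.31% in sgp107_6627T1. In that tumor the type IV chains led, with 52.0%.

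**Figure D1:**
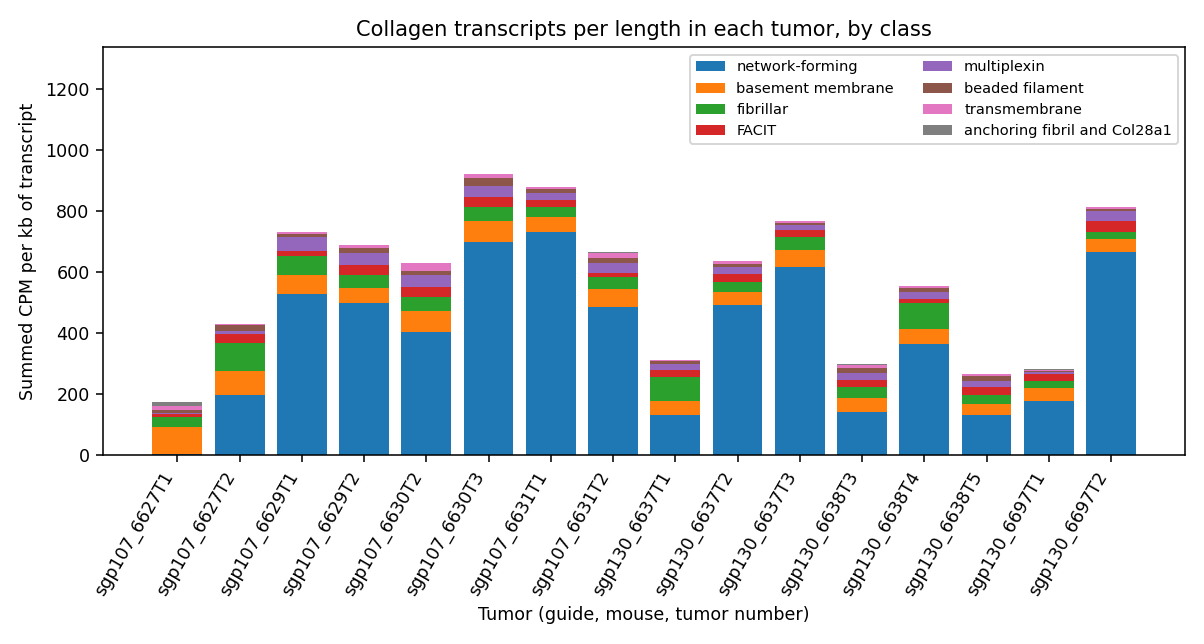
Summed CPM per kilobase of transcript (y axis) of the collagen classes in each of the 16 tumors (x axis), stacked by class. The network-forming class, nearly all Col8a1, fills 41.8% to 83.0% of the bar in 15 tumors and 1.31% in sgp107_6627T1.

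By count, 17 collagens had a mean of at least 10 CPM, 19 lay between 1 and 10 CPM and 7 were under 1 CPM. Of the 43, 23 reached 1 CPM in all 16 tumors. A filter on low counts kept 35 for testing. The 8 others were Col2a1, Col9a1 and Col11a1, which are cartilage collagens, the hemidesmosome collagen Col17a1, and Col6a6, Col8a2, Col19a1 and Col25a1. These were low in most tumors but not in all. Col11a1 reached 4.22 CPM and Col8a2 8.61 CPM in sgp130_6697T1, and Col25a1, a transmembrane collagen of neurons, 12.9 CPM in sgp130_6637T1.

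**Figure D2:**
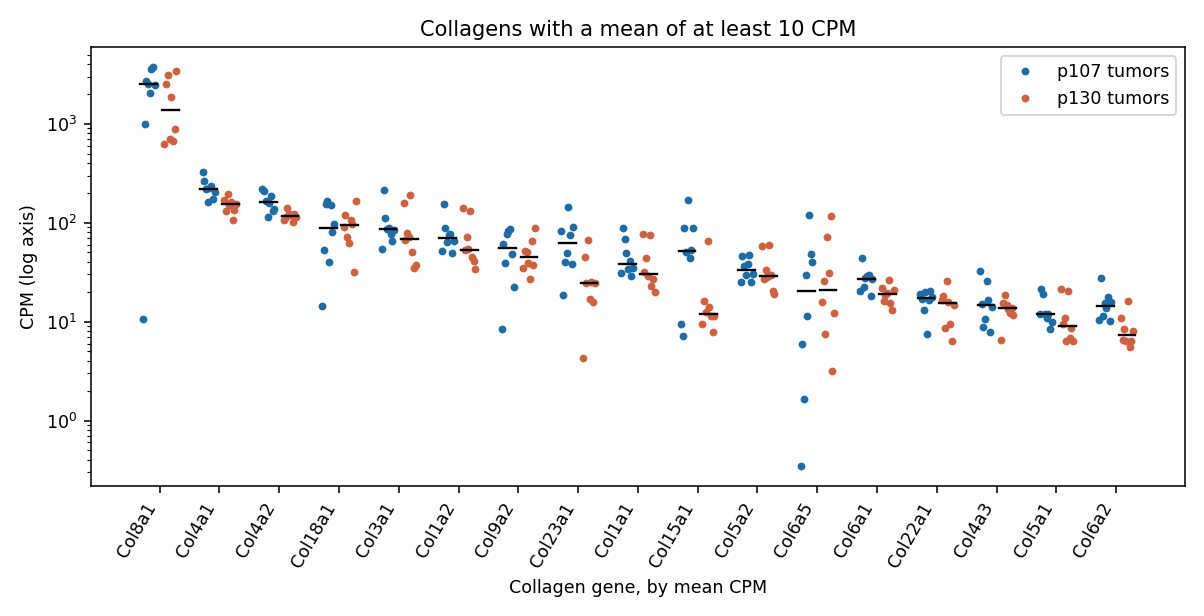
CPM on a log axis of the 17 collagens with a mean of at least 10 CPM. Points are tumors (8 per group) and bars are group medians. Col8a1 lies far above the rest apart from 1 p107 tumor at 10.6 CPM, and the groups overlap for every gene.

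Between the genotypes no collagen passed the threshold of 0.05. edgeR's quasi-likelihood test with Benjamini-Hochberg adjustment called 0 of the 35, where it called 4 of 14857 genes, or 0.0269%. At an unadjusted p under 0.05, 10 collagens were higher in p107 tumors, where 6.21% of all genes were, and 2 were lower, where 5.61% of all genes were, a share near that of the collagens. With no filter on low counts the test called 0 of 43 collagens. At that p 11 were then higher and 3 lower, as were 1306 and 1084 of all 20117 genes. Without sgp107_6627T1 the test again called 0, with 9 of 36 tested collagens higher (6.76% of all genes) and 4 lower (6.43% of all genes) at that p. Without the 6 p130 tumors of high Xist it called 0, with 13 of 40 higher (2.99% of all genes) and 5 lower (3.56% of all genes). The median log2 fold change of p107 minus p130 was 0.21 over the 35 collagens, with 25 above 0 and 10 below, and 0.00 over all genes tested. All 6 type IV chains and 4 of 5 type VI chains were above 0, with medians of 0.59 and 0.52. The values of the 2 groups overlapped for all 43 collagens, while 0.141% of all genes tested had groups that did not overlap. DESeq2 called 4 collagens, Col4a1, Col4a2, Col6a3 and Col25a1, at adjusted p of 0.0214, 0.0394, 0.0271 and 0.00159. It called 335 genes in all, 1.93% of those tested.

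**Figure D3:**
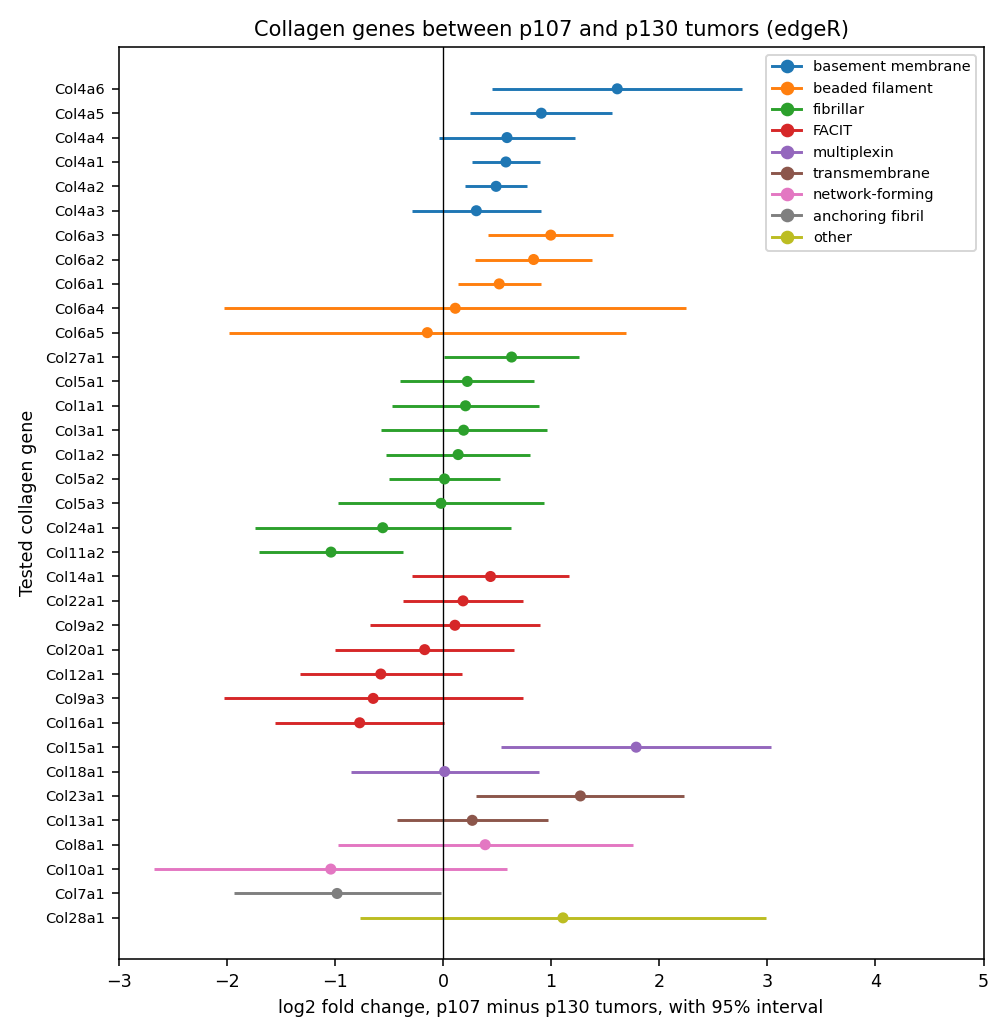
edgeR log2 fold change of p107 minus p130 tumors (x axis, point) with its 95% interval (line) for the 35 tested collagens (y axis), ordered and coloured by class. The 6 basement membrane chains lie right of 0, at 0.31 to 1.61, while types I, III and V lie close to 0.

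Among basement membrane chains, Col4a1 and Col4a2, the chains found in nearly every basement membrane, were the most abundant. Col4a1 lay at 164 CPM at the lowest, 221 at the median and 323 at the highest in p107 tumors, and at 107.3, 153 and 195 CPM in p130 tumors. All 8 p107 tumors were above the p130 median, and no p130 tumor was above the p107 median. The edgeR fold was 1.497 (95% interval 1.21 to 1.86, log2 0.58 ± 0.15 SE, adjusted p = 0.193). An exact two-sided permutation test of log2(CPM + 1), not adjusted for the number of genes, gave p = 0.00124 over tumors and p = 0.0286 over the 7 mice, the smallest value 4 mice against 3 allow. Col4a2 lay at 114, 162 and 222 CPM in p107 and 101, 117 and 142 CPM in p130 tumors, which is 0.49 ± 0.13 SE higher in log2 (edgeR adjusted p = 0.204).

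The difference in these chains went with the vessel markers. Of 16 endothelial markers, 7 were higher in p107 tumors at an unadjusted p under 0.05 (6.21% of all genes) and 0 lower (5.61% of all genes), and none was at 0 in any group. Their score, the mean log2(CPM + 1) of the list, was 3.71 to 4.33 in p107 and 3.18 to 3.89 in p130 tumors. Their summed level was 416 to 1214 CPM in p107 and 482 to 810 CPM in p130 tumors. This sum was mostly Vwf, at 75 to 986 CPM in p107 and 269 to 616.5 CPM in p130 tumors (log2 -0.10 ± 0.36 SE). The vascular cadherin Cdh5 lay at 29.8 to 59.5 CPM in p107 and 17.9 to 34.8 CPM in p130 tumors, a difference of 0.53 ± 0.15 SE in log2 (edgeR adjusted p = 0.222). Both Cdh5 and the score were highest in sgp107_6627T1, where Vwf was lowest. The next highest score was 4.20, in sgp107_6630T2. The part of these markers in the type IV difference was not tested.

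The other type IV chains are more restricted and were lower. Col4a3 and Col4a4, partners with Col4a5 in the basement membrane of alveoli and kidney glomeruli, had means of 14.8 and 9.31 CPM. Col4a3 lay at 7.93, 14.7 and 32.3 CPM in p107 and at 6.53, 13.6 and 18.4 CPM in p130 tumors, which overlap widely (log2 0.31 ± 0.28 SE, edgeR adjusted p = 0.696). Col4a5 and Col4a6 are X-linked. Col4a5 lay at 5.37 to 26.4 CPM in p107 and 2.80 to 10.3 CPM in p130 tumors (log2 0.91 ± 0.31 SE, edgeR adjusted p = 0.280), and Col4a6 at 0.638 to 15.3 and 0.510 to 3.78 CPM (log2 1.61 ± 0.55 SE, edgeR adjusted p = 0.278). Both were highest in sgp107_6630T2. In the fit without the 6 p130 tumors of high Xist, which leaves 2 p130 tumors of 1 mouse, the log2 fold changes were 1.82 and 2.76 (edgeR adjusted p of 0.514 and 0.685).

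The partners of type IV in the basement membrane lay on the same side. Of 14 tested laminin, nidogen, perlecan and agrin genes, 13 had a log2 fold change above 0, with a median of 0.43, and 0 passed the adjusted threshold. At an unadjusted p under 0.05, 5 were higher in p107 tumors, where 6.21% of all genes were. For Hspg2 (perlecan) the log2 difference was 0.78 ± 0.26 SE (edgeR adjusted p = 0.269) and for the laminin chain Lamc3 1.09 ± 0.37 SE (edgeR adjusted p = 0.281). Nid1, a linker between laminin and type IV collagen, was the exception at -0.27 ± 0.22 SE (edgeR adjusted p = 0.654).

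Type VI fell into separate sets. Col6a1, Col6a2 and Col6a3 are the classical chains, which assemble together. Col6a3 lay at 7.30, 12.04 and 21.5 CPM in p107 tumors and at 3.86, 6.54 and 9.59 CPM in p130 tumors. All 8 p107 tumors were above the p130 median. The log2 fold change was 0.997 ± 0.28 SE, a fold of 1.996 (1.335 to 2.98, edgeR adjusted p = 0.209), and the exact permutation p, not adjusted, was 0.00466 over tumors. Col6a2 lay at 10.1, 14.5 and 27.8 CPM against 5.59, 7.25 and 16.2 CPM (log2 0.84 ± 0.26 SE, edgeR adjusted p = 0.243). Col6a1 lay at 18.3, 27.2 and 44.3 CPM against 13.1, 19.1 and 26.7 CPM (log2 0.52 ± 0.18 SE, edgeR adjusted p = 0.284). For each of these chains the p107 median was higher and the ranges overlapped. The later-described chains Col6a4 and Col6a5 varied far more between tumors. Col6a5 ranged from 0.348 CPM in sgp107_6627T1 to 119 CPM in sgp107_6630T3 and from 3.17 to 118 CPM among p130 tumors, with medians of 20.6 and 20.9 CPM. Col6a4 was at 0 in sgp107_6627T1 and sgp130_6637T3 and reached 8.21 CPM in sgp107_6631T2.

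No fibrillar collagen of stroma passed the threshold between the genotypes. Col3a1 lay at 54.2, 85.8 and 215 CPM in p107 tumors and 34.5, 69.2 and 191 CPM in p130 tumors (log2 0.19 ± 0.36 SE, 95% interval -0.58 to 0.96, edgeR adjusted p = 0.875). Col1a2 lay at 49.4, 70.1 and 156 CPM against 34.3, 53.4 and 140 CPM, and Col1a1 at 28.7, 38.0 and 89.3 CPM against 19.8, 30.3 and 76.6 CPM. Each was high in the same 3 tumors, sgp107_6627T2, sgp130_6637T1 and sgp130_6638T4. Of the type V chains, Col5a1 lay at 8.50, 11.9 and 21.3 CPM against 6.40, 8.96 and 21.2 CPM. Col5a2 lay at 24.9, 33.1 and 47.3 CPM against 19.0, 28.8 and 59.9 CPM. The edgeR log2 fold changes of Col1a1, Col1a2, Col5a1 and Col5a2 ran from 0.014 to 0.23, with adjusted p of 0.796 to 0.989. Without the 6 p130 tumors of high Xist, which leaves 2 p130 tumors of 1 mouse, the log2 fold change was 1.449 for Col3a1 (unadjusted p = 0.0120, edgeR adjusted p = 0.572) and 1.008 for Col1a1 (unadjusted p = 0.0467, edgeR adjusted p = 0.750). Col5a3 lay outside this pattern, at its highest in sgp130_6638T3 (24.2 CPM) and sgp107_6629T1 (21.9 CPM).

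Minor fibrillar collagens were near 1 CPM. Col11a2, a chain of the cartilage collagen type XI, had the smallest edgeR p among the 35 tested collagens that were lower in p107 tumors. It lay at 0.430, 0.710 and 1.64 CPM in p107 and at 0.558, 1.67 and 2.17 CPM in p130 tumors, where 7 of 8 were above the p107 median. Its log2 fold change was -1.04 ± 0.32 SE (edgeR adjusted p = 0.246). Of 9 cartilage markers 3 could be tested, and the 9 summed to 13.1 to 23.2 CPM in p107 and 5.76 to 19.6 CPM in p130 tumors. Comp reached 17.6, Sox9 17.3 and Hapln1 12.03 CPM, while the cartilage proteoglycan Acan was at a median of 0 CPM in both groups and reached 3.13 CPM in sgp107_6627T1. Their part in the Col11a2 values was not tested. Col27a1, also known from cartilage, lay at 0.454 to 1.62 CPM in p107 and 0.335 to 0.944 CPM in p130 tumors (log2 0.63 ± 0.30 SE, edgeR adjusted p = 0.417). Col24a1 reached 7.60 CPM, in sgp130_6637T1.

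Of the FACITs, Col9a2 was the most abundant per length, although its usual partners of type IX were low. Col9a2 lay at 8.41, 55.2 and 87.2 CPM in p107 and 27.1, 44.8 and 88.4 CPM in p130 tumors, with the lowest value in sgp107_6627T1. Col9a3 had a mean of 3.24 CPM and Col9a1 of 0.138 CPM. Col9a2 and Col9a3 did not vary together (r = -0.070 over 16 tumors, permutation p = 0.792). Col22a1, known from tissue junctions, lay at 7.55, 17.3 and 20.4 CPM against 6.33, 15.3 and 25.6 CPM, with overlapping groups.

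The FACITs Col12a1 and Col16a1 had their highest values in sgp130_6637T1. Col12a1, which binds the surface of type I fibrils, lay at 3.13, 4.46 and 12.4 CPM in p107 and at 4.35, 6.92 and 19.4 CPM in p130 tumors (log2 -0.58 ± 0.36 SE, edgeR adjusted p = 0.544). Col16a1 lay at 3.60, 6.67 and 10.5 CPM against 3.83, 8.01 and 21.7 CPM (log2 -0.77 ± 0.37 SE, edgeR adjusted p = 0.433), and all 3 tumors of mouse sgp130_6637 were above every other tumor. Col14a1 lay at 4.51 to 13.1 and 1.83 to 12.5 CPM. Col20a1 was at most 2.29 CPM and Col19a1 at most 0.364 CPM.

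The multiplexins Col15a1 and Col18a1 link basement membranes to the tissue beneath, and the end of Col18a1 can be released as endostatin. Col15a1 lay at 7.17, 51.9 and 168 CPM in p107 tumors and at 7.83, 12 and 65.1 CPM in p130 tumors. The 6 p107 tumors of mice sgp107_6629, sgp107_6630 and sgp107_6631 had at least 44.5 CPM, and both tumors of mouse sgp107_6627 at most 9.46 CPM. Among p130 tumors all but sgp130_6638T3 were at most 16.3 CPM. The log2 fold change was 1.79 ± 0.59 SE, a fold of 3.45 (1.46 to 8.18, edgeR adjusted p = 0.267), with exact permutation p, not adjusted, of 0.0325 over tumors and 0.171 over mice. Col18a1 lay at 14.4, 88.6 and 166 CPM against 31.5, 94.6 and 165 CPM, with no shift between the groups (log2 0.015 ± 0.41 SE, edgeR adjusted p = 0.993).

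Col23a1 was the leading transmembrane collagen. It lay at 18.6, 62.0 and 143 CPM in p107 and at 4.29, 24.7 and 66.2 CPM in p130 tumors, with 7 of 8 p107 tumors above the p130 median (log2 1.27 ± 0.46 SE, edgeR adjusted p = 0.290). Col13a1 was at most 1.82 CPM. Col17a1, which anchors basal epithelial cells, reached 0.555 CPM in sgp130_6697T1 and no more than 0.176 CPM elsewhere, and 4 basal cell markers summed to 0.215 to 1.48 CPM in p107 and 0.140 to 0.693 CPM in p130 tumors. Krt5 was at 0 in all p107 tumors and at most 0.0698 CPM in p130 tumors, while Krt14 reached 1.24 CPM in sgp107_6630T3 and Trp63 1.33 CPM in sgp107_6627T1. Col25a1 exceeded 1 CPM in 3 p130 tumors only, at 12.9, 8.07 and 3.13 CPM, and was at most 0.586 CPM in p107 tumors. The filter left it out, and in edgeR without the filter its log2 fold change was -4.22 (unadjusted p = 0.000646, adjusted p = 0.154).

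Of the remaining collagens, Col7a1, which ties the epidermis to the dermis, lay at 0.599, 0.722 and 1.16 CPM in p107 and 0.418, 0.962 and 5.50 CPM in p130 tumors. Its highest value was in sgp130_6697T1, and the edgeR log2 fold change was -0.98 ± 0.45 SE with that tumor (adjusted p = 0.412) and -0.33 without it. Col10a1, the collagen of hypertrophic cartilage, lay at 0.232, 2.29 and 10.4 CPM against 1.06, 3.45 and 24.5 CPM (log2 -1.04 ± 0.77 SE, edgeR adjusted p = 0.622). Col28a1, known from nerve sheaths around Schwann cells, was 53.6 CPM in sgp107_6627T1 and at most 7.42 CPM in the other tumors. The Schwann cell regulator Sox10 was at most 0.139 CPM in any tumor, while the 6 Schwann cell markers summed to 160 to 317 CPM in p107 and 159 to 433 CPM in p130 tumors.

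Col8a1 itself lay at 10.6, 2504 and 3727 CPM in p107 and at 624, 1368 and 3393 CPM in p130 tumors. Values ran high and low in both groups. Mouse sgp130_6637 alone held tumors at 624, 2501 and 3141 CPM. The edgeR log2 fold change was 0.39 ± 0.65 SE (adjusted p = 0.846), while the difference of mean log2(CPM + 1) had the other sign at -0.16 (exact permutation p = 0.960). Without mouse sgp107_6627 the edgeR value was 0.72. Col8a2, which the filter left out, lay at 0.160 to 0.527 CPM in p107 and 0.364 to 8.61 CPM in p130 tumors. Its exact permutation p, not adjusted, was 0.00264 over tumors and 0.0286 over mice.

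Which collagens followed stroma and which followed the carcinoma cells was then asked across the 16 tumors. Each tested collagen was correlated with 5 scores, each the mean log2(CPM + 1) of a marker list that held no collagen, 175 relations in all. p-values came from two-sided permutation of tumors with 100000 draws, adjusted over all 14857 genes. Tumors of a mouse are not independent and the scores are not either, since the fibroblast and the pericyte and smooth muscle scores correlated at 0.82. After adjustment 3 relations passed, all with the epithelial adhesion score.

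The classical stromal chains Col1a1, Col1a2, Col3a1, Col5a1, Col5a2, Col6a1 and Col6a2 had their highest r with the pericyte and smooth muscle score. Col3a1 reached r = 0.81 (rho = 0.75, permutation p = 0.00014, adjusted p = 0.260), Col1a2 0.79, Col5a1 0.78, Col1a1 0.77, Col6a1 0.73 and Col6a2 0.72, with adjusted p of 0.262 to 0.551. Col5a3, Col6a4 and Col6a5 did not share this, with their highest r of 0.47, 0.41 and 0.61 at the epithelial adhesion score. Col6a3 had nearly equal r with the endothelial score (0.5415, rho = 0.58) and the pericyte and smooth muscle score (0.5408, rho = 0.76). Without the 2 tumors farthest from each median score, its r was 0.61 with the endothelial and 0.69 with the pericyte and smooth muscle score. For Col3a1, r was 0.65 without the 2 tumors farthest from the median score, 0.77 within p107, 0.84 within p130 tumors and 0.69 over the 7 mice. In all, 10 collagens had a positive r at an unadjusted p under 0.05, where 3.59% of all genes did, and 0 passed the adjustment, as did 0% of all genes. With the fibroblast score these were 9 collagens, against 3.94% of all genes, and again 0 passed, as did 0% of all genes. Col3a1 had r = 0.69 and Col1a2 0.68 with it, and without the 2 farthest tumors 0.43 and 0.37. The defining markers were present in every tumor, Pdgfra at 8.59 to 133 CPM and Pdgfrb at 13.7 to 29.3 CPM. Pdgfra was highest in sgp107_6627T1 and at most 29.7 CPM in p130 tumors. In sgp107_6627T1 the fibroblast markers did not move together, with Fbln1 and Clec3b also at their highest but Dcn at its lowest, 9.63 CPM.

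**Figure D4:**
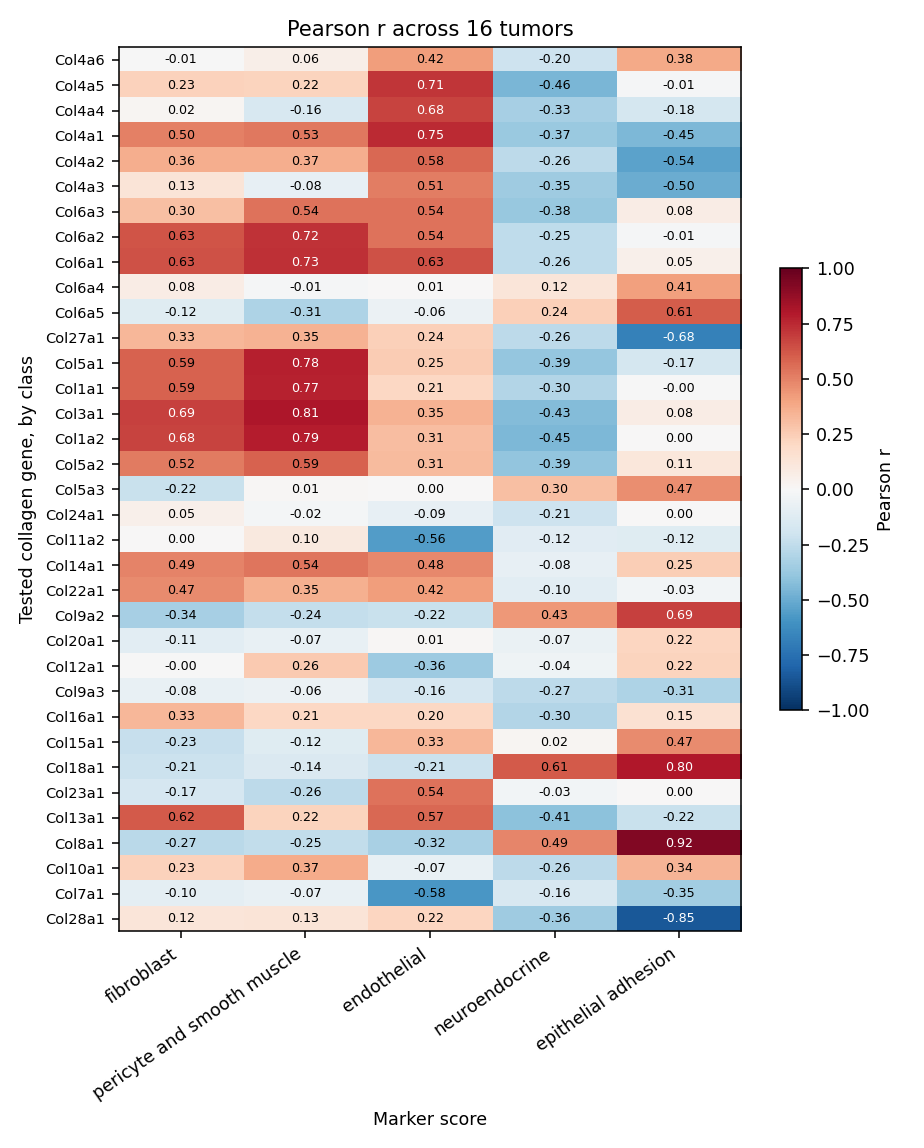
Pearson r across the 16 tumors of each tested collagen (rows, by class) with 5 marker scores (columns), red for positive and blue for negative. Col1a1, Col1a2, Col3a1, Col5a1, Col5a2, Col6a1 and Col6a2 are red under the fibroblast and the pericyte and smooth muscle scores, type IV under the endothelial score and Col8a1, Col18a1 and Col9a2 under the epithelial adhesion score.

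Type IV chains correlated with the endothelial score to different degrees, and for none did the adjusted p pass. Col4a1 reached r = 0.75 (rho = 0.71, permutation p = 0.00084, adjusted p = 0.191), Col4a5 0.71, Col4a4 0.68, Col4a2 0.58 and Col4a3 0.51, while Col4a6 at 0.42 did not reach an unadjusted p under 0.05 (permutation p = 0.108). For Col4a1, r was 0.69 without the 2 farthest tumors, 0.66 within p107, 0.50 within p130 tumors and 0.88 over the 7 mice. Within p130 tumors r was 0.020 for Col4a2 and -0.14 for Col4a3. Without sgp107_6627T1 it was 0.66 for Col4a1 (permutation p = 0.00646), 0.44 for Col4a2 (p = 0.106) and 0.33 for Col4a3 (p = 0.232), and 0.67 for Col4a6 (p = 0.0120). In all, 10 collagens had a positive r at an unadjusted p under 0.05, against 4.4% of all genes, and 0 passed the adjustment, against 0.0202% of all genes. Col11a2 and Col7a1 had a negative r, of -0.56 and -0.58, and the latter became -0.16 without the 2 farthest tumors.

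With the neuroendocrine score, Col18a1 had r = 0.61 (permutation p = 0.0105, adjusted p = 0.371) and Col8a1 r = 0.49 (permutation p = 0.0351, adjusted p = 0.419). These were the 2 collagens at an unadjusted p under 0.05, where 6.41% of all genes were, a share near that of the collagens, and 0 passed the adjustment, as did 0% of all genes. For Col18a1, r was 0.91 within p107 and 0.049 within p130 tumors. Without sgp107_6627T1 r was 0.53 for Col18a1 (permutation p = 0.0423) and 0.39 for Col8a1 (permutation p = 0.149). Without mouse sgp107_6627 no collagen had an unadjusted p under 0.05 in either direction. With any other single mouse left out 2 to 6 did, and without sgp107_6627T1 alone 4 did. The share of all genes was not taken for these omissions. The neuroendocrine score varied little, from 8.21 to 8.70.

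Col8a1 and Col18a1 passed with the epithelial adhesion score, the mean of 12 genes such as Epcam, Cdh1 and Krt8. They are 2 of 35 collagens, no larger a share than the 8.18% of all genes that passed with a positive r. Col8a1 had r = 0.92 (rho = 0.77, permutation p = 0.00032, adjusted p = 0.00821), and r was 0.67 without the 2 farthest tumors, both of mouse sgp107_6627. Within p107 tumors r was 0.96, within p130 tumors 0.64, and over the 7 mice 0.98 (permutation p = 0.00794). Col18a1 had r = 0.80 (rho = 0.58, adjusted p = 0.0152), and 0.55 without the 2 farthest tumors. Col28a1 passed with a negative r of -0.85 (adjusted p = 0.0276), where 7.01% of all genes did, and r was -0.61 without the 2 farthest tumors.

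These calls rest on sgp107_6627T1, whose score of 3.07 lay far under the 5.84 to 8.02 of the other tumors. Without it r was 0.66 for Col8a1 (permutation p = 0.00657, adjusted p = 0.0918), 0.59 for Col18a1 (adjusted p = 0.157) and -0.47 for Col28a1 (adjusted p = 0.279). At an unadjusted p under 0.05 over all tumors, 5 collagens had a positive r (16.2% of all genes) and 3 a negative r (14.4% of all genes), shares no larger than those of all genes. Among them Col6a5 (r = 0.61) and Col9a2 (r = 0.69) fell to 0.25 and 0.32 without the 2 farthest tumors. In sgp107_6627T1 the transcription factor Zeb2, a repressor of epithelial genes, was at 354 CPM and vimentin (Vim) at 288 CPM, the highest of all. The rest of the 10 mesenchymal genes listed with them were each highest in another tumor, and Prrx1 was at its lowest here, 1.51 CPM. The mean log2(CPM + 1) of this list was 4.37, against 4.33 in sgp107_6627T2. The neuroendocrine score of 8.27 in sgp107_6627T1 lay inside the range of the other tumors. The part of these markers in the collagen values was not tested.

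**Figure D5:**
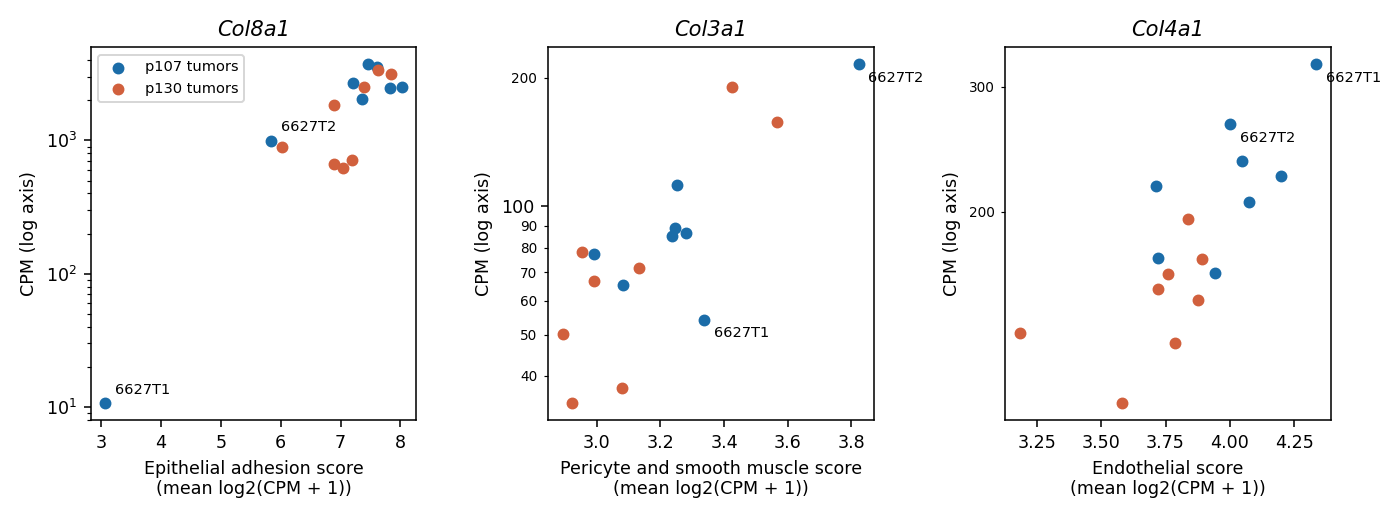
CPM (log axis) of Col8a1, Col3a1 and Col4a1 against the marker score each followed most closely (x axis, mean log2(CPM + 1)), 1 point per tumor. Tumor sgp107_6627T1 lies alone at 10.6 CPM of Col8a1 and an epithelial score of 3.07, while the other panels show a spread without such a gap.

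The collagens also followed each other. These pairs were chosen after the values were seen. Among 14856 other genes, the one most like Col4a1 was Col4a2 (r = 0.92, permutation adjusted p = 0.0425), whose start lies beside it in the sequences above. Next came Mmd, Nrp2, Hspg2 and Cdh5 at r of 0.86 to 0.83. Of all genes 0.0269% passed with Col4a1, and of the 34 other collagens 1. The gene most like Col3a1 was Col1a2 (r = 0.97), followed by Col1a1, Col5a2, Ecm1 and Col5a1 at r of 0.93 to 0.87. Of the 34 other collagens 2 passed with Col3a1, Col1a1 and Col1a2, against 0.0202% of all genes. With Col1a1, 3 collagens passed, Col1a2, Col3a1 and Col5a1, again against 0.0202% of all genes.

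Some other chain partners varied together as well. Col6a1 and Col6a2 had r = 0.94 (permutation p = 1e-05, adjusted p = 0.149), and both were highest in sgp107_6627T2. That p is the smallest the draws allow, and a gene alone at it could not pass the adjustment. Col6a3 followed Col6a1 less closely (r = 0.61, permutation p = 0.0106, adjusted p = 0.999), with r of 0.20 within p107 and 0.59 within p130 tumors. Col4a5 and Col4a6 had r = 0.86 (adjusted p = 0.0457) and Col4a3 and Col4a4 r = 0.81 (adjusted p = 0.127). Col5a1 followed Col5a2 (r = 0.81, adjusted p = 0.512) but not Col5a3 (r = 0.00). Col8a1 followed no fibrillar chain, with r = 0.12 against Col3a1. The genes most like it included Mapk13, Myo5b, 0610040J01Rik, Traf3ip2 and Wbscr27, at r of 0.97 to 0.96 over 16 tumors and 0.90 to 0.82 without the 2 farthest tumors. Of the 34 other collagens only Col18a1 passed with Col8a1 (r = 0.76, adjusted p = 0.0370), no larger a share than the 5.04% of all genes.

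The genes that make, process and bind collagens showed no call between the genotypes. Of 18 tested genes of collagen synthesis, such as hydroxylases and chaperones, 9 lay above and 9 below 0 in log2 fold change, and 0 passed the edgeR threshold, with 0 higher and 1 lower at an unadjusted p under 0.05 (6.21% and 5.61% of all genes). The smallest p in each direction were those of Sec23a (0.57 ± 0.32 SE) and Glt25d1 (0.22 ± 0.18 SE), and of the lysyl hydroxylase Plod1 (-0.32 ± 0.15 SE) and Ppib (-0.19 ± 0.11 SE). Of 12 genes of maturation and crosslinking 0 passed, with 2 higher and 0 lower at that p. They include the crosslinking enzyme Tgm2 (0.59 ± 0.17 SE), the only one of the pathway genes that DESeq2 called, Pcolce (1.07 ± 0.48 SE), which aids removal of the propeptide, Tll1 (-0.71 ± 0.64 SE) and Loxl1 (-0.14 ± 0.23 SE).

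Among 13 tested genes of turnover 0 passed, with 2 higher and 1 lower at that p (6.21% and 5.61% of all genes). The protease inhibitors Timp3 (0.70 ± 0.29 SE) and Timp2 (0.52 ± 0.23 SE) had the smallest p on the higher side, and the collagenase Mmp8 (-1.09 ± 0.40 SE) and Fap (-0.64 ± 0.39 SE) on the lower side. Among 8 tested receptors 0 passed and 1 was higher at that p, with the integrin chains Itga2 at 1.13 ± 0.51 SE and Itga1 at 0.25 ± 0.22 SE on the higher side, and Itgb1 (-0.077 ± 0.15 SE) and Ddr2 (-0.14 ± 0.44 SE) on the lower. The edgeR adjusted p of the genes named here ran from 0.212 to 0.931.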

How the data were processed

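RNA was measured in 16 mouse lung tumors, 8 with mutated p107 and 8 with mutated p130. Estimated counts for each gene were deposited by the authors, 1 column a tumor. Bowtie 1.0.1, RSEM 1.2.12 and genome build mm9 are named, per the submitters' processing notes. What annotation and strand setting were used is not given in the sources used here, so reads of overlapping or antisense genes could not be separated. The authors also deposited a normalized signal table. Its columns are the estimated counts scaled by 1 factor per tumor, judged by the values. It leaves out 1701 of the rows, including all 883 that RefSeq symbols place on X, so Col4a5 and Col4a6 are absent from it and it was not used for results. There were 0 other columns of single samples.

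Estimated counts were rounded. All genes kept by filterByExpr were compared between p107 and p130 tumors with the robust quasi-likelihood test of edgeR 4.0.16 (R 4.3.3) and TMM factors. Benjamini-Hochberg adjusted p-values were held against 0.05. A standard error is the size of the log2 fold change divided by the root of F. CPM uses TMM factors, and log values use a pseudocount of 1. Correlations and exact permutation tests (12870 ways to divide the tumors, 35 for the mice) used NumPy 2.4.6 and SciPy 1.17.1. Each mouse had 1 genotype, so the mouse was not a fixed block. Limma 3.58.1 estimated a correlation of 0.201 between tumors of a mouse, so p-values over tumors may be too small. Transcript lengths are those of the longest protein-coding transcript in a GRCm38 annotation, and promoter windows are from RefSeq (GRCm38.p6). No coordinates of the count table's build are given. The tests were checked on simulated data with known changes.

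The members and gene lists were chosen with earlier results of these data known. Collagens named with group values are those tested with a mean of at least 10 CPM, the 5 of smallest edgeR p in each direction and up to 3 called per score. Of pathway lists, the 2 members of smallest p in each direction are named. All further genes were picked with their values in view. Alternatives were other scaling factors, no filter, DESeq2 1.42.0, voom with a mouse block, counts per mouse, left-out tumors and mice, Spearman correlation, a pseudocount of 0.1, centring within genotype and other fibroblast markers. Counts cover 12700334 to 34620979 per tumor, so values under 1 CPM rest on few reads.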

Additional observations from a re-analysis of the deposited data

Results flagged for a closer look

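In 56 sets of 8 values (the named collagens and the marker scores, in each group), 14 had a tumor whose gap to its nearest neighbour was more than 0.526 of the range, Dixon's limit for 8 samples. For values with a normal spread chance alone flags about 1 in 20, here 2.8 sets. Collagen values were examined as CPM without a log, and all flagged ones were on the high side, so 2.8 may be too low. Sets that vary together are also not independent.

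Tumor sgp107_6627T2 was the highest p107 tumor for Col3a1 at 215.1 CPM (others 54.2 to 112), Col1a2 at 155.8 CPM (others 49.4 to 89.3), Col6a1 at 44.3 CPM (others 18.3 to 29.9), Col6a2 at 27.8 CPM (others 10.1 to 17.9) and Col11a2 at 1.64 CPM (others 0.430 to 0.908). Its pericyte and smooth muscle score was also apart, at 3.82 against 2.99 to 3.34. Its part in these collagen values was not tested.

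Tumor sgp130_6637T1 stood above the other p130 tumors for Col12a1 at 19.4 CPM (others 4.35 to 11.4) and Col10a1 at 24.5 CPM (others 1.06 to 8.00). Among p107 tumors Col10a1 was highest in sgp107_6629T2, at 10.4 CPM (others 0.232 to 4.54). Col15a1 was 65.1 CPM in sgp130_6638T3, against 7.83 to 16.3 in the other p130 tumors. Col6a5 reached 119.3 CPM in sgp107_6630T3 (others 0.348 to 48.2). Tumor sgp130_6697T1 had the highest Col7a1, at 5.50 CPM (others 0.418 to 1.94), and the lowest endothelial score among p130 tumors, at 3.18 (others 3.58 to 3.89). The epithelial adhesion score was 3.07 in sgp107_6627T1 and 5.84 to 8.02 in the remaining p107 tumors.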

How the results depend on the processing

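Of 128 counts of collagens under alternatives, 122 stayed within 1.5 times the value reported or remained 0. The number called between genotypes was 0 in each alternative except DESeq2, which called 4. Leaving out single tumors or mice gave 0, and 10 to 14 collagens at an unadjusted p under 0.05, against 12 with all tumors. With the epithelial adhesion score 2 collagens were called, against 1 by Spearman correlation and 0 without sgp107_6627T1. With single mice left out it was 0 to 3 (0 without mouse sgp107_6627, 1 without mouse sgp130_6697). Over the means of the 7 mice 0 collagens were called, as were 0 of all genes, with any score. The 7 means have only 5040 orders, which limits the smallest p, so this 0 cannot show whether the relations hold. The DESeq2 log2 fold changes were 0.59 for Col4a1, 0.50 for Col4a2, 1.005 for Col6a3 and -4.34 for Col25a1. The direction of Col8a1 reversed in voom when mouse was a random block (log2 -0.19). Leaving out a tumor or mouse, Col3a1 ran from -0.079 to 0.46, and it reversed without sgp107_6627T2 (-0.079), mouse sgp107_6627 (-0.0067) or mouse sgp130_6697 (-0.065). Without the 6 p130 tumors of high Xist Col3a1 was 1.449. The cause was not tested. Under the same omissions Col4a1 ran from 0.42 to 0.68 and Col15a1 from 1.40 to 2.47. Without mouse sgp107_6630, Col4a6 was 0.98. No paired analysis was possible because tumors of the 2 groups come from different mice. Depth limits the collagens near 1 CPM, such as Col11a2, Col7a1 and Col27a1.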

Other observations

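Extreme collagen values were unevenly spread over tumors. Of the 43 collagens, 9 had their highest value in sgp107_6627T2, 8 in sgp107_6627T1, 6 each in sgp107_6630T2 and sgp130_6697T1 and 5 in sgp130_6637T1. The set of sgp107_6630T2 held Col4a4, Col4a5, Col4a6, Col6a3, Col15a1 and Col23a1, while that of sgp130_6697T1 held Col7a1, Col8a2, Col9a3, Col11a1, Col11a2 and Col17a1. Col4a4, a chain of alveolar basement membranes, was most like Cecr2, Timp3, Sema3a, Notch1, St3gal1 and Col23a1 (r of 0.94 to 0.87 over 16 tumors). Markers of mesothelial and alveolar type 1 cells, which also rest on basement membrane, were detected in both groups. The mesothelin gene Msln lay at 4.69 to 43.3 CPM in p107 and 1.79 to 17.9 CPM in p130 tumors, and Ager at 41.4 to 118 and 32.1 to 80.8 CPM.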
